A study of Rattus norvegicus with 38 samples.

Results

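The region described here is a stretch of rat chromosome 20 from 6 to 8 Mb in the mRatBN7.2 assembly, which holds the genes Armc12, Cdkn1a and Pim1. Its members are the H3K27ac peaks of the substantia nigra (SN) and motor cortex lists whose midpoint lies in it, 361 of 151509 peaks in all, made up of 189 of 70744 SN peaks and 172 of 80765 motor cortex peaks. The window was selected on measured values, since it holds peaks that the study called differentially acetylated after rotenone exposure. Those fold changes and calls are the study's own comparisons and are not given here. The first SN member has its midpoint at 7509 bp inside the lower edge, and the last SN peak outside it lies 88.5 bp below that edge. In the motor cortex, the first member lies 138 bp inside.

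H3K27ac ChIP-seq was performed on SN and motor cortex from 9 male Lewis rats aged 8 to 10 months, 5 of them injected intraperitoneally with rotenone (2.8 mg/kg) each day over 21 days and the other 4 with vehicle. The period of 21 days is that of the labels, while the study's methods also state that daily dosing ran until a rat reached its endpoint. The labels give the vehicle as PBS in one field and as Miglyol in another, and they call the SN samples ventral midbrain. Brains were dissected 24 h after the last injection. The authors combined the reads of rotenone and vehicle rats of a brain region before peak calling, so each region has 1 list of positions, with no height, score, read count or value per rat. The depth behind a peak and the spread between rats are therefore unknown, rotenone and vehicle cannot be compared from the lists, and every difference between the regions below is a description of 2 pooled lists, with no test. The study states that read coverage was higher in the motor cortex than in the SN, and the part of coverage in the differences below was not tested. The deposited SN list is also longer than the SN peak set that the study describes, for which the sources used here give no reason, so counts, ratios and overlap shares of the SN hold for the deposited list. The input runs are labelled cortex only, with none labelled for the SN among the samples analysed here.

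Acetylation of lysine 27 of histone H3 is deposited by the acetyltransferases p300 and CBP and marks active promoters and enhancers. A wide peak usually covers a promoter with its flanks or several enhancers close together. Among the genes of the window, Fkbp5 encodes a co-chaperone that lowers the hormone affinity of the glucocorticoid receptor and is itself induced by glucocorticoids, through enhancers that include intronic ones. Cdkn1a encodes p21, the inhibitor of cyclin-dependent kinases that p53 induces, and Pim1 encodes a serine/threonine kinase induced by cytokines through STAT factors. Rotenone is a pesticide that blocks complex I of the mitochondrial respiratory chain.

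Letters of the peaks themselves are not printed, since no genome of the mRatBN7.2 build was used here. The promoters of Fkbp5 and Cdkn1a are shown because peaks of the window were annotated to both. They come from RefSeq for the GRCr8 assembly, 250 bases before to 50 after a start of each gene. The sequence listed first for a gene was used. Whether its start is the main start was not checked, and other starts were not searched. Fkbp5 is read on the minus strand and Cdkn1a on the plus strand. Capitals mark matches to 5 motifs searched on both strands, with no overlap between matches here. They were the GC box with the letters GGGCGG, the CCAAT box with the letters CCAAT, the half-site of the glucocorticoid response element with the letters AGAACA, the TATA box with the letters TATAAA, and the p53 half-site.
Fkbp5: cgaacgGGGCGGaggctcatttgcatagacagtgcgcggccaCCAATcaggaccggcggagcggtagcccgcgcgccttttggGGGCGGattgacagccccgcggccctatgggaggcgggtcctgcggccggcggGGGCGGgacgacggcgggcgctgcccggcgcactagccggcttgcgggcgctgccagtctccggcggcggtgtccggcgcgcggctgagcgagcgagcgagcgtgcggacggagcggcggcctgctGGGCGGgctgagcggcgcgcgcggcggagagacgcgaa
Cdkn1a: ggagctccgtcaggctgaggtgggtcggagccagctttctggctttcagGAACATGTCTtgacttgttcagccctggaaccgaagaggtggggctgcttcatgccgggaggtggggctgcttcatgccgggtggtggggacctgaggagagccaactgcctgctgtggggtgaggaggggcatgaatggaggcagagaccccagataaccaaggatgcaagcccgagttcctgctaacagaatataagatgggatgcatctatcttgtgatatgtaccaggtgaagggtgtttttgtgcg
The Fkbp5 promoter held 4 GC boxes and 1 CCAAT box, and 77.0% of its bases were G or C. In the 300 bases shown for Cdkn1a, 1 p53 half-site was the only match. Their share of G and C was 56.7%, against a median of 51.7% over all 33469 promoters searched. A GC box was found in 33.1% of those promoters, a CCAAT box in 37.5%, the glucocorticoid half-site in 20.7%, a TATA box in 14.2% and the p53 half-site in 7.98%. Neither printed promoter held the glucocorticoid half-site or the TATA box in these 300 bases. The 300 bases taken in the same way held 1 glucocorticoid half-site for Armc12 and none of the 5 motifs for Pim1. Letters outside them were not searched, so these counts do not describe a whole promoter. A match describes the letters only, and intronic and distal elements lie outside these windows. The peaks were not placed against these letters, because the builds differ, and the Cdkn1a promoter peaks described below are annotated to the promoter class farthest from the start.

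SN peaks of the window covered 271.7 kb and motor cortex peaks 297.9 kb, or 13.6% and 14.9% of the 2 Mb. The SN thus had more peaks but less covered length, since its peaks were narrower. Median width was 1056 bp in the SN, with an interquartile range from 547 to 1972 bp, and 1386.5 bp in the motor cortex, with an interquartile range from 752.75 to 2218.75 bp. Over the whole lists the medians were 994 and 1245 bp. The narrowest and widest SN members measured 164 and 7498 bp, and those of the motor cortex 243 and 9983 bp. Peaks under 500 bp made up 21.2% of the SN and 14.5% of the motor cortex members. Listed SN peaks numbered 1.10 per motor cortex peak in the window, against 0.93 in the rest of chromosome 20 and 0.88 over the whole lists.

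The window was crowded with peaks in both brain regions. Among 1298 windows of 2 Mb, counted from the start of chromosomes 1 to 20 and X, it ranked 17 by SN peaks and 33 by motor cortex peaks, where the median window held 42 and 53. By covered length it ranked 43 and 83. The flanking window from 4 to 6 Mb held 166 SN and 168 motor cortex peaks, and that from 8 to 10 Mb held 122 and 136. Among the windows with at least 20 peaks in each list, 74.6% had a lower ratio of SN to motor cortex peaks. The choice of the window used peaks of these lists, so its place among windows is a description only.

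**Figure D1:**
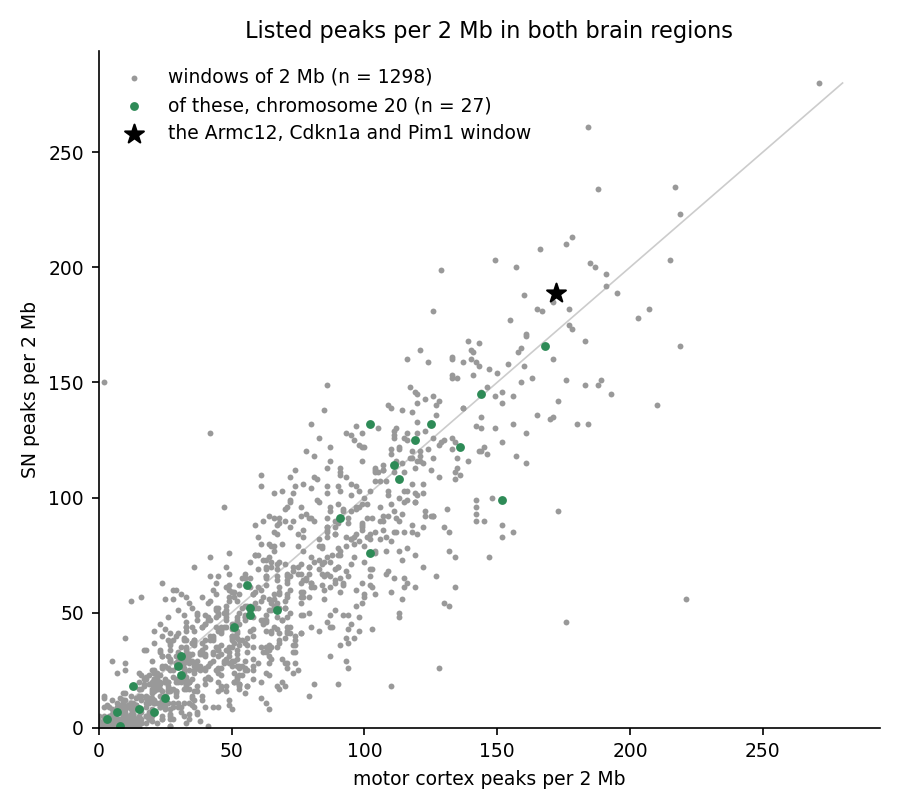
Each grey point is 1 of 1298 windows of 2 Mb, with its motor cortex peaks on the x axis and its SN peaks on the y axis; green points are those of chromosome 20 and the star is the Armc12, Cdkn1a and Pim1 window. The star lies at 172 and 189 peaks, above the line of equal numbers and beyond most windows in both regions.

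An overlap of at least 1 bp with a peak of the other region was found for 124 of 189 SN members (65.6%, 95% Wilson interval 58.6% to 72.0%) and for 125 of 172 motor cortex members (72.7%, 65.6% to 78.8%), in 136 pairs counted from the SN. The intervals cover counting error only and treat peaks as independent, which neighbours need not be. With both lists limited to peaks of at least 1000 bp, the order turned, to 76.8% for the SN and 69.0% for the motor cortex. Shares at this minimum width were not computed over the whole lists, so the turn is not shown to be particular to the window. Over the whole lists, with no minimum width, the shares were 65.3% and 55.1%, the SN share being the higher. The SN share lay near the middle of the 910 windows with at least 20 SN peaks, 48.5% of which had a lower share, and the motor cortex share was above that of 86.8% of 1020 such windows. By length, 70.1% of the bases in SN members and 64.4% of those in motor cortex members were also in a peak of the other region, and 50.3% of the 379049 bp in either list were in both.

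Members with a partner were wider than those without one. Median width was 1503 bp for the 124 SN members with a partner and 567 bp for the 65 without. In the motor cortex the medians were 1554 bp for 125 and 970 bp for 47. The same order held over the whole lists, with medians of 1362 and 572 bp for all SN peaks and of 1589 and 915 bp for all motor cortex peaks. Among members without a partner, 10 SN and 23 motor cortex peaks were at least 1000 bp wide. In all, 99 SN and 113 motor cortex members were that wide. The nearest peak of the other region lay within 1 kb for 17 of the 65 SN members and 8 of the 47 motor cortex members. The median distance was 2735 and 3423 bp. With peaks up to 1 kb apart counted as partners, the shares were 74.6% and 77.3%, against 73.0% and 58.8% over the whole lists. The counts at 1000 bp and the distances were not taken over the whole lists.

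**Figure D2:**
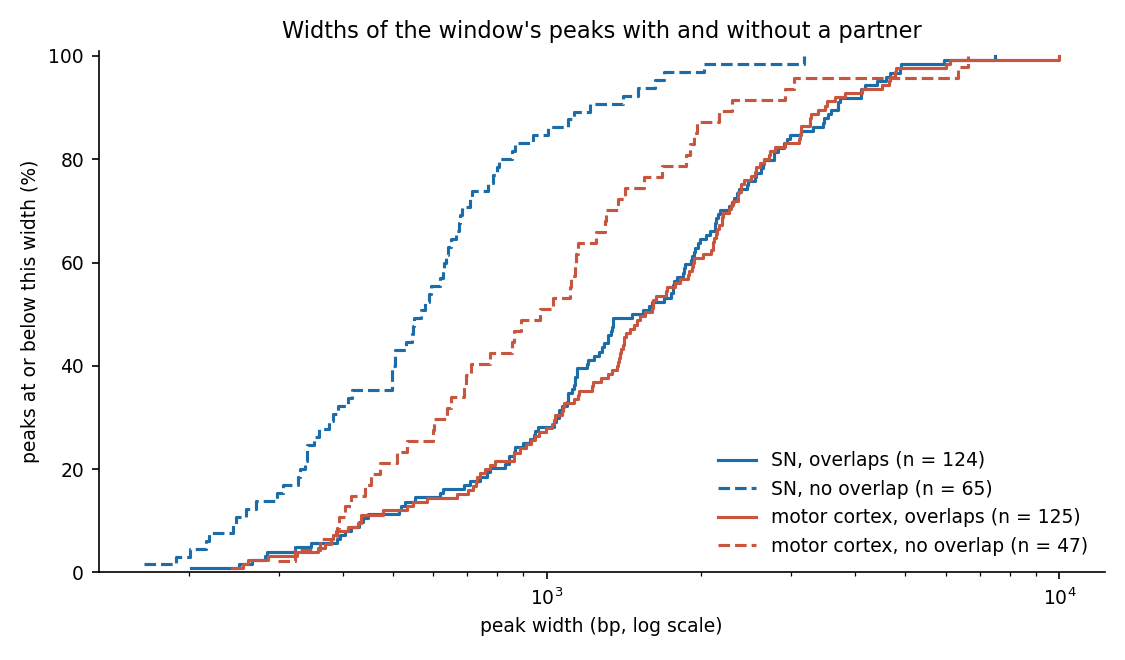
Cumulative share of the window's peaks (y axis, %) at or below each width (x axis, bp, log scale), for SN (blue) and motor cortex (red) peaks with (solid) and without (dashed) an overlapping peak of the other region. The solid lines of both regions run together, with medians of 1503 and 1554 bp, while the dashed lines lie to the left, with medians of 567 and 970 bp.

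Gene names were given by the study's annotation for 43 members, 10 of the SN and 33 of the motor cortex, and these are the members that the study listed as differentially acetylated. They made up 5.29% of the SN and 19.2% of the motor cortex members, where the study's tables hold 2.95% of all listed SN peaks and 11.4% of all listed motor cortex peaks. The study itself reports a larger share for the SN, over the shorter SN peak set that it describes. Since the window was selected on these calls, nothing is read from these differences. The remaining 318 members have no name here, and having a name is therefore part of how the window was chosen and no result. The names cover 24 genes, 8 for the SN and 21 for the motor cortex, of which 5 are shared: Armc12, Cdkn1a, Pi16, Pim1 and Tulp1. Among 42 protein-coding genes that lie from Anks1a to Cmtr1 in the RefSeq gene order of GRCr8, 23 carry a named peak. All 10 named SN peaks overlapped a peak of the other region, against 65.6% of all SN members. The named SN peaks were all at least 1099 bp wide. Of the 99 SN members of at least 1000 bp, 10 had no motor cortex partner of any width. The share of 76.8% given above also required a partner of at least 1000 bp, so it is no match for this count. Of the 33 named motor cortex peaks, 25 overlapped an SN peak, or 75.8% against 72.7% of all motor cortex members.

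**Figure D3:**
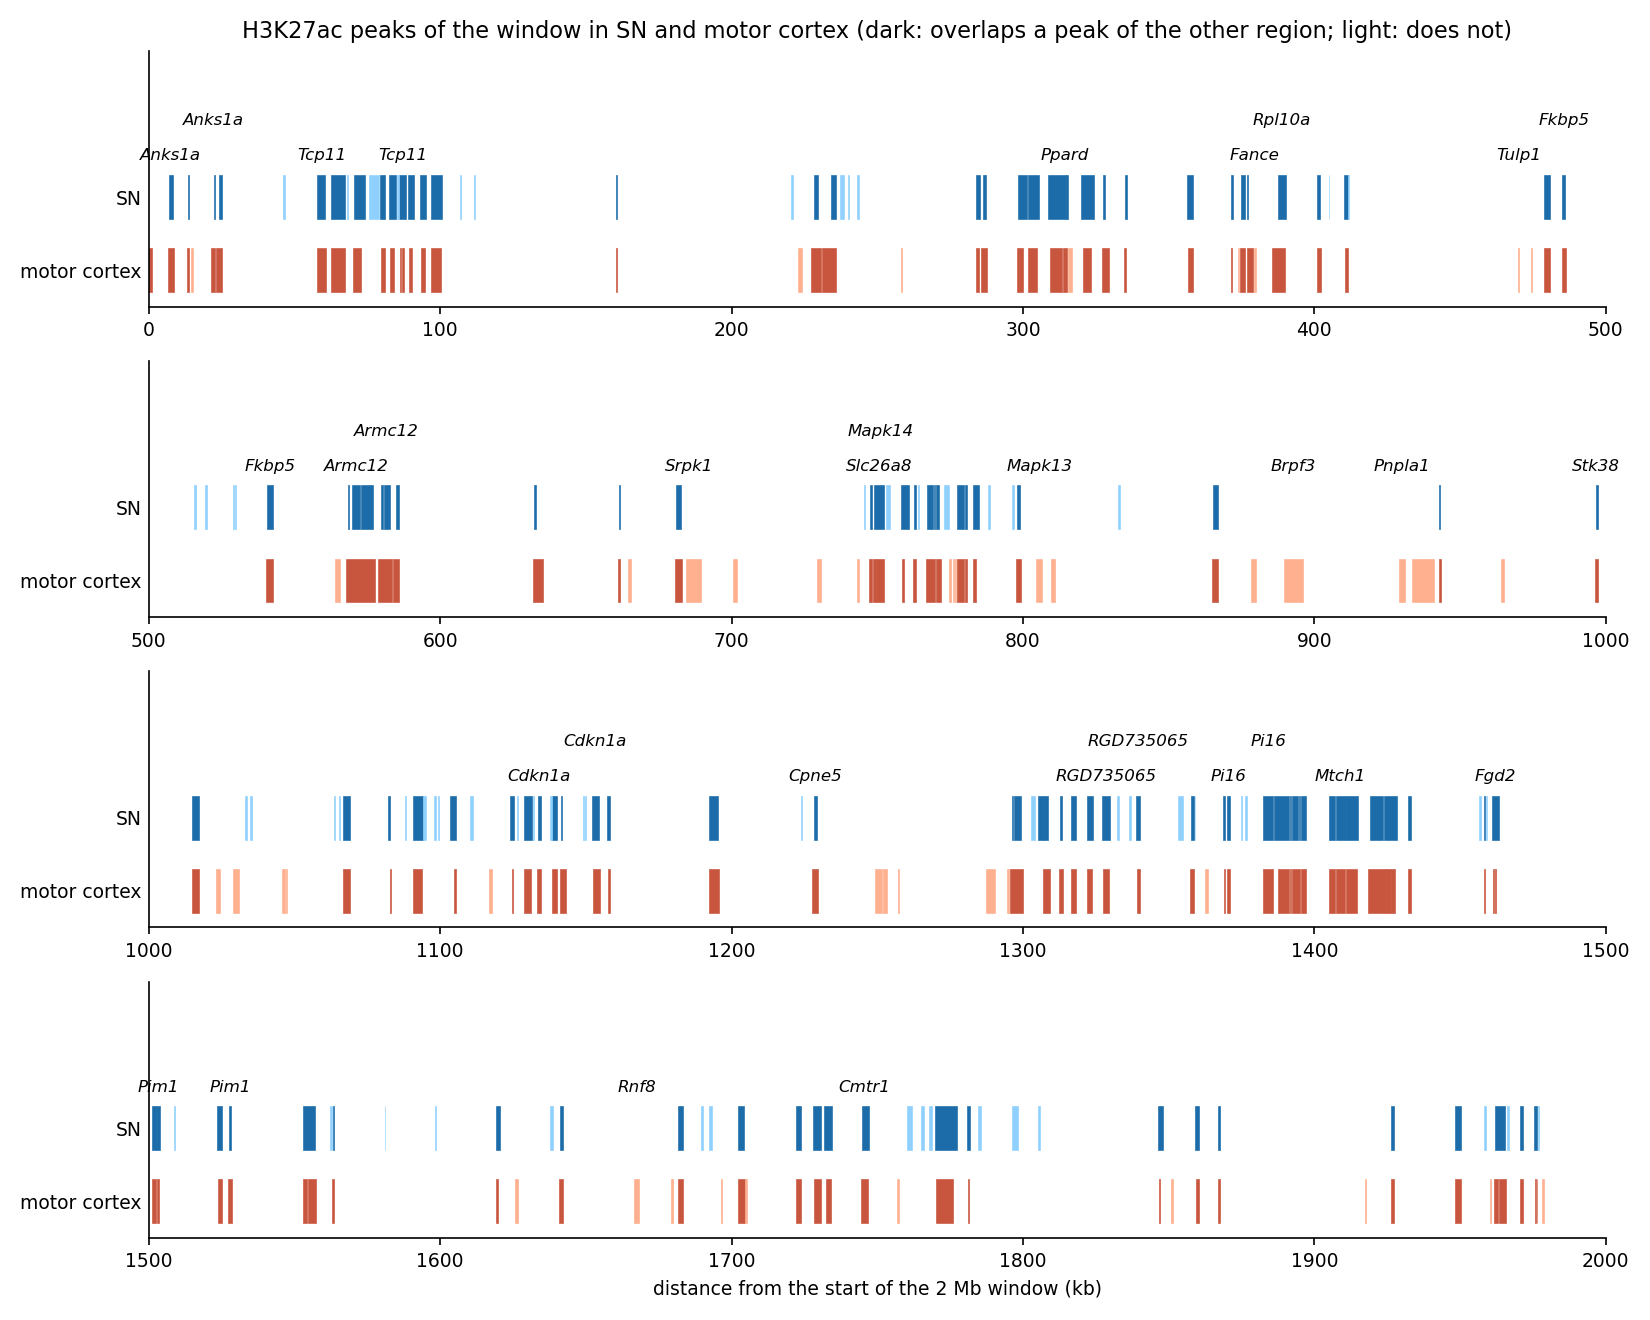
All 361 peaks of the window in 4 rows of 500 kb, with distance from the window's start on the x axis (kb), SN peaks in blue above motor cortex peaks in red, dark where a peak overlaps one of the other region and light where it does not. Names mark peaks that the study's annotation assigns to a gene, neighbours of 1 gene less than 10 kb apart being marked once, and the 3 runs of light red peaks under Srpk1, Brpf3 and Pnpla1 and after Cpne5 face stretches with no SN peak.

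The widest single peak of the window carried the name of Armc12. Armc12 encodes an armadillo repeat protein best known from sperm mitochondria. The motor cortex peak on chromosome 20 from 6567706 to 6577688, annotated as distal intergenic, was 9983 bp wide, the widest of the 172 motor cortex members and wider than 99.1% of the motor cortex list. The SN list splits this stretch into a peak of 554 bp from 6568270 to 6568823, one of 2556 bp from 6569838 to 6572393 and one of 4105 bp from 6572964 to 6577068. The last of them ranked 9 by width among the SN members. Together, the 3 SN peaks covered 72.3% of the motor cortex peak.

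The same split was seen in the next peak of the group. The motor cortex peak from 6578630 to 6583407, also distal intergenic, was 4778 bp wide and overlapped SN peaks from 6579810 to 6580323 and from 6580565 to 6582743, which covered 56.4% of it. The third motor cortex peak, from 6583706 to 6585793, was annotated as promoter of Armc12 and overlapped an SN peak from 6584990 to 6585853 over 804 bp. All 6 SN peaks of the stretch thus had a partner, and each SN peak but the last lay wholly inside it. Named Armc12 peaks summed to 16849 bp in the motor cortex and 8840 bp in the SN. The SN sum leaves out the unnamed SN peaks of 554, 514 and 864 bp in this stretch. Names mark the study's calls, so these sums do not compare covered length.

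Fkbp5 is the protein-coding gene next to Armc12 in the RefSeq order, and 5 of the named peaks carried either its name or one of its transcripts. At its promoter, a motor cortex peak from 6540370 to 6542659 contained an SN peak from 6540461 to 6542506, with widths of 2290 and 2046 bp. An intronic motor cortex peak from 6485102 to 6486231, named for Fkbp5, overlapped an SN peak from 6485051 to 6486009 over 908 bp. The peaks named for Tulp1, a gene of photoreceptors, are annotated to introns or an exon of a transcript that RefSeq lists under Fkbp5, so the name and the gene that holds the peak differ. The SN peak named for Tulp1, from 6478809 to 6480780, lay wholly inside a motor cortex peak of the same name, from 6478704 to 6480826. The other motor cortex peak named for Tulp1, from 6470013 to 6470373, was 361 bp wide and the nearest SN peak lay 8435 bp away.

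Between the intronic and promoter peaks of Fkbp5 the regions differed in what was listed. The SN list holds 5 peaks in a row without a partner, from 6515518 to 6529747, with widths from 248 to 650 bp and 2006 bp in all. The motor cortex list has no peak between 6486231 and 6540370. These were the only 5 or more consecutive SN members without a partner. Such runs were not counted over the whole SN list, where 24552 of 70744 peaks had no partner. A motor cortex peak from 6564027 to 6565444, between the Fkbp5 promoter and the Armc12 group, had no SN partner.

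**Figure D4:**
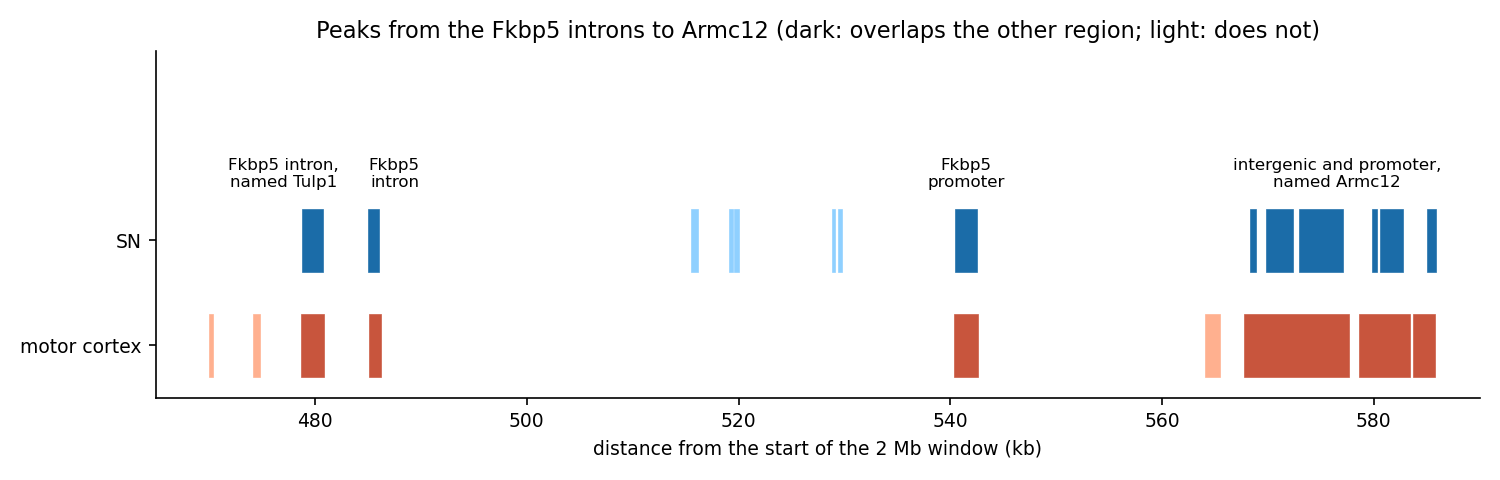
Peaks from the Fkbp5 introns to Armc12 in the SN (blue) and motor cortex (red), with distance from the window's start on the x axis (kb) and light colours for peaks without a partner. The promoter peaks of Fkbp5 and the named peaks in its introns have a partner in the other region. The 5 SN peaks between them and the exonic motor cortex peak named for Tulp1 have none. The motor cortex peaks of 9983 and 4778 bp named for Armc12 face 3 and 2 SN peaks.

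The promoter peaks of Cdkn1a matched closely between the regions. The SN peak from 7151954 to 7154588 and the motor cortex peak from 7152275 to 7154884, both annotated as promoter in the class that lies farthest from the start, were 2635 and 2610 bp wide and shared 2314 bp, or 87.8% and 88.7% of their widths. Another motor cortex peak named for Cdkn1a, from 7133344 to 7134711 and annotated as distal intergenic, shared 1321 bp with an SN peak from 7133391 to 7134722. An unnamed pair lay between the others, from 7138404 to 7140097 in the SN and from 7138348 to 7139951 in the motor cortex. Another unnamed pair matched less, since the SN peak from 7141304 to 7141733 covered 22.2% of the motor cortex peak from 7141159 to 7143099. The SN list also held peaks of 392 and 375 bp, from 7148857 to 7149248 and from 7149627 to 7150001, which had no motor cortex partner.

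The named peaks at Pim1 were narrower. The SN peak from 7502587 to 7503685 was 1099 bp wide, near the middle of the SN list, and contained a motor cortex peak of 701 bp from 7502633 to 7503333. The motor cortex peak from 7527137 to 7528530 was 1394 bp wide and contained an SN peak of 830 bp from 7527521 to 7528350. Both were annotated as distal intergenic, so the study's names of the 2 regions fall on different elements, and at each of them both lists held a peak. The widest SN peak of this stretch, from 7553060 to 7557163, was 4104 bp wide and carried no name. The motor cortex list splits it into peaks of 1415 and 2722 bp, the reverse of the order at Armc12.

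Besides Pim1, the kinase genes with a named peak were Mapk14, Mapk13, Stk38 and Srpk1. Mapk14 and Mapk13 encode p38 kinases of the stress response. The SN peak from 6748944 to 6752422 contained the motor cortex peak from 6749590 to 6752372, and the annotation names the first for Slc26a8, an anion transporter of the testis, and the second for Mapk14. Both are promoter peaks, so 2 names stand for 1 place. The peak named for Mapk13, from 6804557 to 6806519 in the motor cortex, lies in an intron of a Mapk14 transcript and had no SN partner. Stk38, which encodes a kinase of the NDR family, had a motor cortex peak from 6996195 to 6997216 that shared 708 bp with an SN peak. Srpk1, which encodes a kinase of splicing factors, had a promoter peak from 6684322 to 6686260 in the motor cortex without a partner in the SN.

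At 3 places, 5 motor cortex members without a partner followed each other, and these runs held 11 of the 23 such members of at least 1000 bp. Members without a partner numbered 47 of 172 here, against 36299 of 80765 over the whole motor cortex list. Runs were not counted outside the window, so they are not shown to be particular to it. The first run, from 6684322 to 6743573, started with the Srpk1 peak and covered 8000 bp. In the second run, from 6878342 to 6940921 and covering 17363 bp, stood the exonic peak of Brpf3, from 6889494 to 6896125, and those of Pnpla1, from 6929143 to 6931012 and from 6933630 to 6939962. Brpf3 encodes a subunit of a histone acetyltransferase complex and Pnpla1 a protein of skin lipid synthesis. With widths of 6632 and 6333 bp, the Brpf3 peak and the wider Pnpla1 peak ranked 2 and 3 among the motor cortex members. The third run, from 7249366 to 7295339, covered 7724 bp and carried no name.

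Each of these runs fell in 1 of the 4 longest stretches of the window without an SN peak. This follows in part from the definition, since a motor cortex peak wholly inside such a stretch has no partner. Those stretches were 62777, 75891 and 66888 bp long. The remaining one, of 66901 bp, ended at the SN peak in the Fkbp5 intron. The longest stretch without a motor cortex peak was 65229 bp. SN members without a partner were narrower, and the widest was a peak of 3172 bp from 6075644 to 6078815, followed by one of 2023 bp from 7796305 to 7798327. Neither carried a name.

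Besides Srpk1, the genes of DNA repair, of RNA and translation and of nuclear receptors with a named peak were Fance, Rnf8, Rpl10a, Cmtr1 and Ppard. Fance, of the Fanconi anaemia core complex, had an exonic motor cortex peak of 649 bp from 6379184 to 6379832 without a partner. The peak named for Rnf8, a ubiquitin ligase of the response to DNA breaks, lies in an exon of a Tbc1d22b transcript, from 7666395 to 7668295, and had none either. Rpl10a, a ribosomal protein gene, had a promoter peak in the SN from 6387533 to 6390352, which shared 2551 bp with a wider motor cortex peak that starts at 6385410. Cmtr1, which encodes an mRNA cap methyltransferase, had an exonic motor cortex peak from 7744451 to 7746807 that shared 1968 bp with an SN peak. Ppard, a nuclear receptor of fatty acids, had 2 intronic peaks in the motor cortex. The first, from 6313569 to 6314979, was overlapped over 1094 bp by the SN peak from 6308717 to 6314662, which at 5946 bp was the second widest SN member, and the other, from 6320514 to 6323422, lay wholly inside an SN peak of 4410 bp.

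Among the genes of membrane and signalling proteins, the match between regions varied. Fgd2, which encodes an exchange factor of the GTPase Cdc42, had an SN peak of 2262 bp from 7460989 to 7463250. In the motor cortex this stretch held 2 peaks of 380 and 358 bp, so here the SN peak was the wider one. Mtch1, a protein of the outer mitochondrial membrane, had a promoter peak in the motor cortex from 7407348 to 7410446, of which 3094 bp were in an SN peak. The exonic peak of Cpne5, which encodes a copine, was 2194 bp wide in the motor cortex and contained an SN peak of 1054 bp. At Anks1a, the motor cortex peaks of 2112 and 1502 bp contained SN peaks of 1338 and 394 bp. For Pi16, which encodes a peptidase inhibitor, the peaks annotated to the 3′ UTR were 3586 bp wide in the SN and 3276 bp in the motor cortex, and the second lay wholly inside the first. Its distal intergenic motor cortex peak, from 7369969 to 7371048, lay wholly inside an SN peak. The 2 intronic peaks named RGD735065 belong to C20h6orf89 in the RefSeq table and had SN partners.

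The widest SN member, from 7769743 to 7777240, measured 7498 bp and carried no name. It contained a motor cortex peak of 6016 bp from 7770008 to 7776023. The third widest, of 4907 bp from 6062482 to 6067388, contained the exonic motor cortex peak of 4642 bp named for Tcp11, a gene of sperm function. Its intronic motor cortex peak from 6057817 to 6060943 shared 2749 bp with an SN peak, and the narrowest peak of this name, of 792 bp, lay wholly inside one. The fourth widest SN member, of 4880 bp from 7386265 to 7391144, contained a motor cortex peak of 3484 bp. In the motor cortex the fourth widest, of 6117 bp from 7418363 to 7424479, overlapped SN peaks of 4594 and 4667 bp. Of the 5 widest SN members, the peak from 7423740 to 7428406 was split most, over 4 motor cortex peaks. Several partners were found for 10 of 189 SN and 10 of 172 motor cortex members. Over the whole lists they were found for 4064 of 70744 SN and 4919 of 80765 motor cortex peaks.

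Along the window, peaks were unevenly spread. Of 20 stretches of 100 kb, 10 held more SN than motor cortex peaks, 8 held fewer and 2 held as many. The stretch from 1300 to 1400 kb after the window's start, with the named peaks of C20h6orf89 and Pi16, held the most SN peaks, 23, against 15 in the motor cortex, and 33.8 and 25.7 kb in peaks. The stretch from 100 to 200 kb held 3 and 1. Covered length was higher in the motor cortex by the largest amount from 800 to 900 kb, at Brpf3 and Mapk13, with 13.5 against 2.42 kb. It was higher in the SN by the largest amount from 1700 to 1800 kb, at Cmtr1, with 26.8 against 18.3 kb. The stretch with the Cdkn1a peaks, from 1100 to 1200 kb, held 15 SN and 10 motor cortex peaks with 19.2 and 16.7 kb, and that of the Armc12 group, from 500 to 600 kb, 12 and 5 peaks with 14.8 and 20.6 kb.

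**Figure D5:**
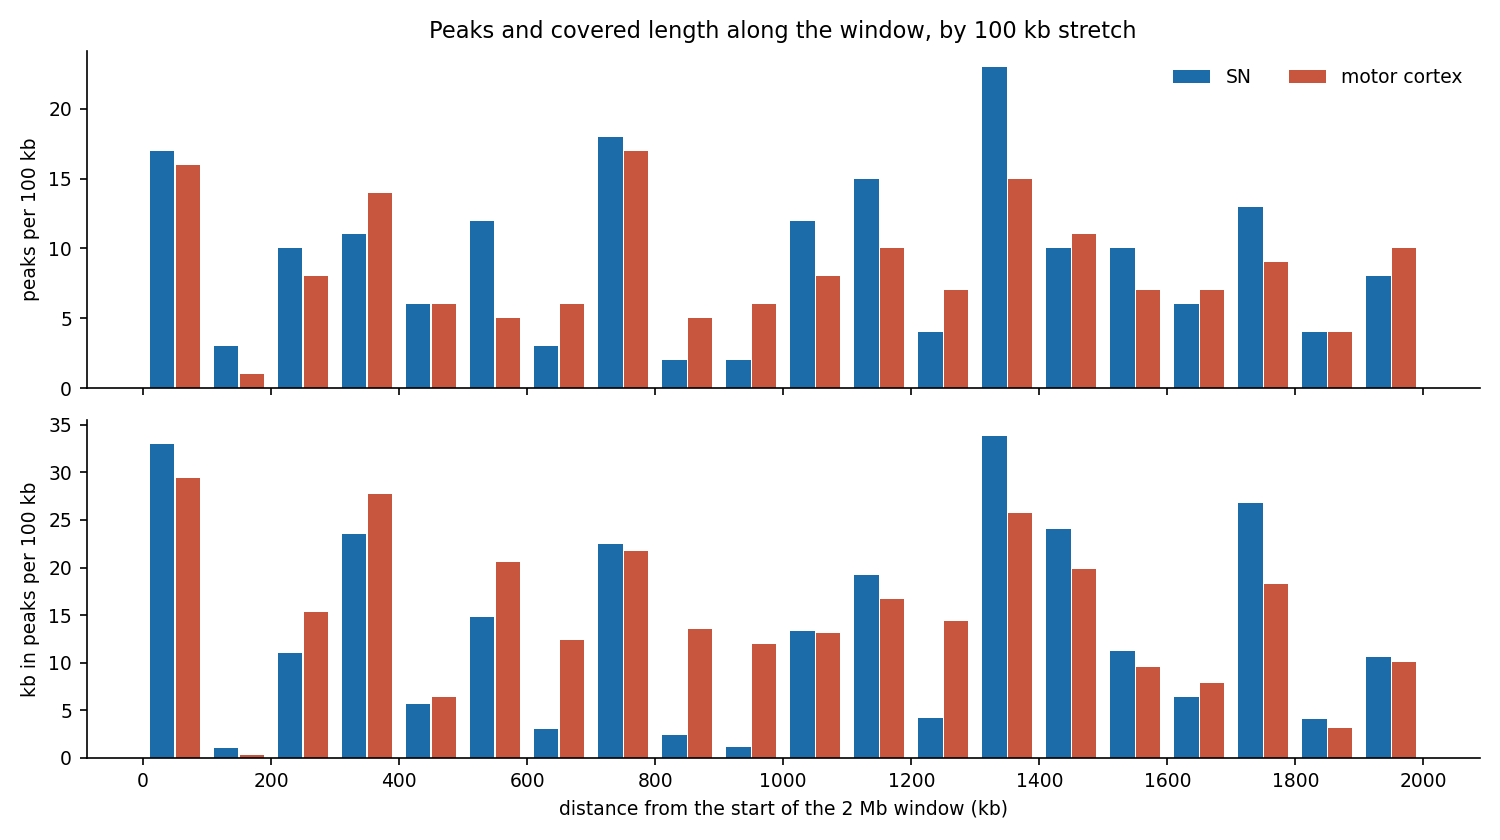
Number of peaks (upper panel) and kb in peaks (lower panel) in each 100 kb of the window, for SN (blue bars) and motor cortex (red bars), against distance from the window's start (kb). The SN bar is highest at 1300 to 1400 kb with 23 peaks, and red bars exceed blue ones most clearly at 600 to 700, 800 to 1000 and 1200 to 1300 kb.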

How the data were processed

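H3K27ac ChIP-seq of 9 rats was analysed from 1 deposited peak list for each brain region. According to the methods and the submitters' processing notes, the authors used Trim Galore 0.6.7 for trimming, Bowtie2 2.4.4 for alignment to mRatBN7.2 and Picard 2.6.0 to remove duplicates. MACS2 2.2.7.1 was then run once per brain region on the merged reads of its rats, with merged input as control; the input runs are labelled cortex. The deposited files hold positions only, and no depth per sample could be given. Starts were taken as BED starts and raised by 1, so that printed positions begin at 1. The study's supplementary tables of differentially acetylated peaks gave gene names and kinds of position for rows with identical intervals, read from page images; their fold changes, p-values and distances in bp were not used. RefSeq symbols of GRCr8 gave gene order and transcripts, without coordinates.

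Overlaps, widths and counts were computed with Python 3.11.15, pandas 2.3.3, numpy 2.4.6 and scipy 1.17.1, and the overlaps were checked against bedtools 2.31.1 and on simulated data. No test was run, since pooled lists have no replicates. Every peak with a gene name is named, with positions in full for Armc12, Cdkn1a, Pim1 and Fkbp5, for the 5 widest of each region and for others where the regions differ; some unnamed peaks were picked after their values were seen. Members and gene lists were chosen with earlier results of these data known. Alternatives were another membership rule, minimum widths, merging, other overlaps and other windows.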

Additional observations from a re-analysis of the deposited data

How the results depend on the processing

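A value counted as the same when it stayed within 1.5 times the reported one. Limiting the lists to peaks of at least 1000 bp moved the number of members, to 99 for the SN and 113 for the motor cortex, and the number with a partner, to 76 and 78, because fewer peaks were left. The SN then no longer held more peaks than the motor cortex. The order of the overlap shares turned, from 65.6% of SN and 72.7% of motor cortex members as listed to 76.8% and 69.0%. Shares at this minimum width were not computed over the whole lists. At 500 bp the members numbered 149 and 147. A reciprocal overlap of 50% left 86 SN and 87 motor cortex members with a partner, or 45.5% and 50.6%. Over the whole lists the shares at this setting were 41.8% and 36.6%. Counting peaks up to 1 kb apart gave 141 and 133, or 74.6% and 77.3%, against 73.0% and 58.8% over the whole lists. Membership by any overlap, merging across 1 kb, covered length and median width stayed within 1.5 times in both regions. The place among windows is a percentage near its upper limit, so the rule of 1.5 times could hardly fail for it. As first laid out, 98.6% of windows held fewer SN peaks and 97.5% fewer motor cortex peaks. Shifted by 1 Mb, 98.8% and 97.5% of windows held fewer peaks. The lists carry no score, so a stricter calling threshold could not be tried. Leaving out a rat was not possible because values for each rat are not in the pooled lists. No paired analysis was possible because each list was called on merged rats and has no replicate. Fewer cells of a type and less acetylation per cell cannot be told apart in bulk tissue.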

Other observations

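Peak names in both lists carry running numbers with gaps. Within the window, the SN members span 337 numbers, of which 56.1% are listed, and the motor cortex members span 270, of which 63.7% are listed. The methods do not say why the other numbers are not listed.

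In the annotation of the window, 8 named peaks lie in an intron or exon of a transcript that RefSeq lists under another symbol than the name. They comprise the 3 peaks named for Tulp1, which lie in Fkbp5, 1 of the Tcp11 peaks, which lies in Anks1a, the Mapk13 peak in Mapk14, the Rnf8 peak in Tbc1d22b, and the 2 peaks named RGD735065, where only the symbol differs from C20h6orf89. A count of peaks by gene name in this window therefore differs from a count by the gene that holds the peak. Intronic and exonic peaks whose transcript could not be read from the page images are not included.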
